A study of Homo sapiens with 6 samples.

Results

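The genes described here are ribosome biogenesis and nucleolar factors: proteins of RNA polymerase I transcription, of the small nucleolar ribonucleoproteins (snoRNPs), and of the assembly of both ribosomal subunits. They were chosen by name from a list of 48, of which 47 have a row in the deposited table of 18806 genes. All 47 had a TPM (abundance per transcript length, scaled to a fixed total per library) of at least 1 in at least 2 libraries, as did 11151 genes in all. The rule that picks them uses no measured difference, but the list was made with earlier results of these data known. RRN3, the remaining gene of the list, was not analysed here. The members fall into 3 genes of RNA polymerase I transcription, 5 of the snoRNPs, 12 of the small subunit processome, 6 of later 40S assembly, 17 of 60S assembly and 4 nucleolar chaperones and multifunctional proteins.

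Poly(A)+ RNA was sequenced from 6 libraries of the human Mono-mac-6 line, acute myeloid leukemia cells of monocytic type bearing an MLL-AF9 fusion. The groups are cells with guide sgDDX6.1, cells with guide sgDDX6.2, and cells with the control guide sgNS, with 2 libraries each. Both sgDDX6 guides direct Cas9 to DDX6, whose product is an RNA helicase known for repressing translation and promoting decay of mRNAs in cytoplasmic granules. All 3 groups share 1 Cas9-expressing single clone, lentiviral delivery, and selection in blasticidin at 10 µg/ml and hygromycin B at 200 µg/ml, so every value belongs to that clone. The labels give harvest on day 8 after infection, while the series' design text gives selection for 1 to 2 weeks, so the day is uncertain. The labels do not say that replicates were separate cultures; p-values therefore measure the spread between these libraries, which may be technical.

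Ribosomes are made in the nucleolus, where RNA polymerase I transcribes the ribosomal RNA precursor and many factors fold, modify, cut and assemble it with ribosomal proteins. The small subunit processome forms on the nascent precursor around the U3 snoRNP, and separate sets of factors mature the 40S and 60S subunits before export to the cytoplasm. Leukemia cells that grow fast are known for high ribosome production, and MYC is known as an activator of many of these genes.

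The promoters of 3 members are shown because these members show, between them, the largest difference between the guides (NIP7), the largest change against sgNS (UTP20), and the presence of both motifs marked below in one window (UTP18). Each sequence is the 250 bases before a RefSeq transcription start (GRCh38.p14), written 5′ to 3′ on the gene's strand, with capitals marking CACGTG (the E-box) and CCGGAAG or its reverse complement CTTCCGG (a core of the ETS type). NIP7 lies at chr16:69339522-69339771 on the plus strand, inside the wider NIP7 span that GENCODE annotates. UTP20 lies at chr12:101279855-101280104 and UTP18 at chr17:51260296-51260545, both on the plus strand.
NIP7: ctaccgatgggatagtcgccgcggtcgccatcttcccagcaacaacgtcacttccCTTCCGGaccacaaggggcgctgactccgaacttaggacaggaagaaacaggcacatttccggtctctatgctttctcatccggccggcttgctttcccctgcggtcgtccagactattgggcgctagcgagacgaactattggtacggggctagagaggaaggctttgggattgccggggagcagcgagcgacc
UTP20: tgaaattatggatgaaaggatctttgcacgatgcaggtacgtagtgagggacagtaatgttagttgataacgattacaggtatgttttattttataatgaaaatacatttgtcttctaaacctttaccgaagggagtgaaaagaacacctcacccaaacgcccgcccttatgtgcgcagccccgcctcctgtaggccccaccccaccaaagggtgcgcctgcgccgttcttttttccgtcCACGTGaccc
UTP18: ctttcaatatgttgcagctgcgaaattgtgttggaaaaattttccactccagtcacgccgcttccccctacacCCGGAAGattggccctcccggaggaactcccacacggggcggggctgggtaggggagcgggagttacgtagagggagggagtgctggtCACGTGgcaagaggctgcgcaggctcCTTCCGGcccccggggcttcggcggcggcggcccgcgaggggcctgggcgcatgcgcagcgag

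Windows were found for 40 of the 47 members (46 windows), and 6 motifs were searched on both strands. CCGGAAG, on either strand, stood in 37% of member windows and in 14.7% of the 12588 windows of other tested genes. CACGTG, its own reverse complement, stood in 8.7% of member windows and 8.56% of the others. CGCGTG stood in 17.4% and 15%, GGGCGG in 65.2% and 63.5%, the long palindromic CGCG element in 2.17% and 0.715%, and CATGTG in 0% and 6.33%. A gene can have several windows; counted per gene, over 40 members and 8677 other genes, the shares were 40% and 19.8% for CCGGAAG, 10% and 11.7% for CACGTG, 20% and 19.9% for CGCGTG, 67.5% and 74.7% for GGGCGG, 2.5% and 0.957% for the CGCG element, and 0% and 8.42% for CATGTG. The order of the shares of CACGTG and GGGCGG thus turned with the way of counting. Between members with CCGGAAG (16 genes) and members without it (24 genes), the median log2 difference between the guides was 0.32 and 0.31. These matches describe letters in a window and are not measured binding sites.

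DDX6 itself was lower with both guides. It had 54.4 and 52.0 TPM with sgDDX6.1 and 52.3 and 53.5 TPM with sgDDX6.2, against 102 and 99.5 TPM with sgNS. Over both guides this was a log2 fold change of -0.91 (SE 0.04; limma with Benjamini-Hochberg adjustment, adjusted p = 4.61e-09), and sgDDX6.1 and sgDDX6.2 differed by 0.01 (adjusted p = 0.918). mRNA left after a cutting guide does not measure the protein. Each library summed to the same TPM total, so depth is unknown and no counting interval is given. T cell markers CD3D, CD3E, CD3G and CD2, together with MS4A1, KRT19 and HBB, were listed at 0 in every library. Of the 8 monocytic and myeloid markers all passed the filter, with a summed TPM of 14213 to 14791 with sgDDX6.1, 14990 to 15439 with sgDDX6.2 and 9922 to 10413 with sgNS. LYZ alone makes up most of these sums, and the other 7 summed to 383 and 395 TPM with sgDDX6.1 and 494 and 527 TPM with sgDDX6.2, against 383 and 391 TPM with sgNS. Of these 8, 4 were called higher and 4 lower over both guides, and between the guides 1 was higher and 3 lower with sgDDX6.1. PECAM1, looked up in the list of epithelial and stromal markers, was not read as a sign of other cells. It ranged from 135 to 139 TPM with sgDDX6.1 and from 192 to 200.5 TPM with sgDDX6.2, against 64.6 to 66.9 TPM with sgNS. The part of these shifts in the results was not tested. In bulk RNA, fewer cells of a type and less RNA per cell cannot be told apart.

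All 47 members were higher with sgDDX6.1 than with sgDDX6.2. A gene is called here when its limma test, Benjamini-Hochberg adjusted over all 11151 genes, gives p under 0.05; in this comparison 18.6% of all genes were called higher and 17.0% lower. Of the members, 47 were called higher, 0 lower and 0 were left uncalled. Their median log2 difference was 0.32, against 0.02 over all genes, and the values ran only from 0.16 (NPM1) to 0.45 (NIP7), all folds here being of TPM + 1 in log2 units, which shrinks those of weakly expressed genes. The SD over genes was 0.077 for the members and 0.246 for all genes. It was 0.072 for cytosolic ribosomal proteins, 0.087 for mitochondrial ones and 0.134 for 98 other ribosome biogenesis genes. A narrow spread is thus not particular to the members. Both sgDDX6.1 libraries were above both sgDDX6.2 libraries for all 47, where 38.5% of all genes had this order and 30.7% the opposite one. Replicates of the members differed by a median of 0.061 with sgDDX6.1, 0.032 with sgDDX6.2 and 0.047 with sgNS, on the log2 scale. The largest adjusted p was 0.035 (NOC4L). With an sgDDX6 library left out, 42 to 44 members were still called: NOC4L was lost without any of the 4 (adjusted p 0.0514 to 0.155), GNL2 without either sgDDX6.1 library or sgDDX6.2 replicate 1 (0.0537 to 0.206), UTP6 without sgDDX6.1 replicate 1 or either sgDDX6.2 library (0.0623 to 0.102), NOP16 without sgDDX6.1 replicate 2 or sgDDX6.2 replicate 1 (0.112 and 0.0635), EBNA1BP2 without sgDDX6.2 replicate 1 (0.0932) and NPM3 without sgDDX6.2 replicate 2 (0.0659). All stayed positive.

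**Figure D1:**
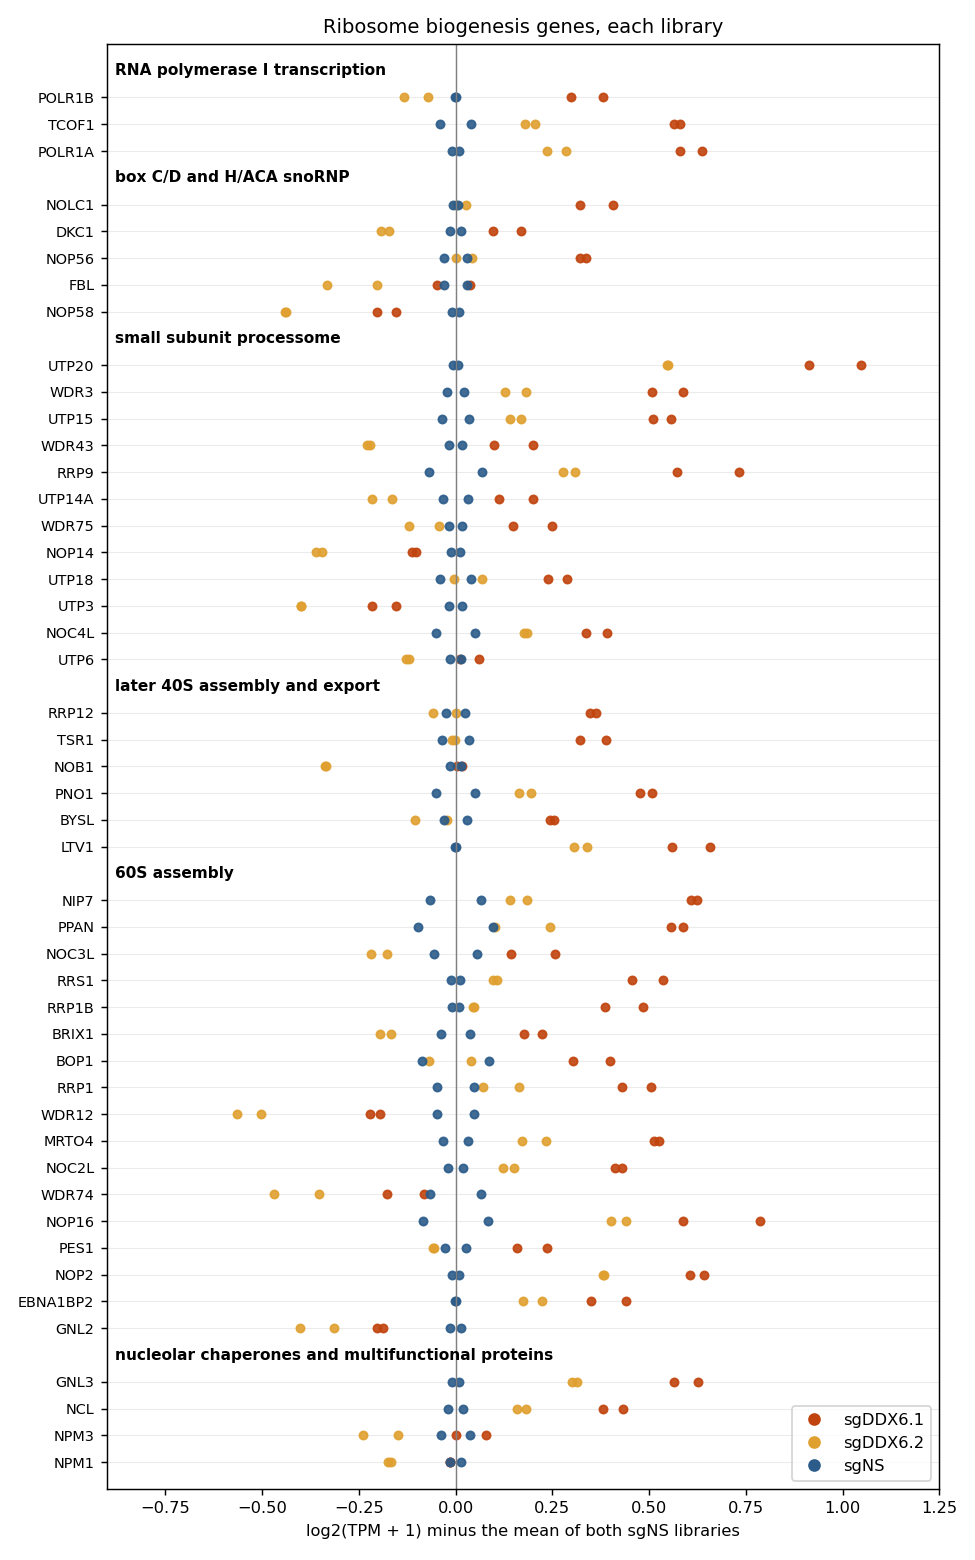
Each dot is 1 library's log2(TPM + 1) for a member minus the mean of both sgNS libraries, with sgDDX6.1 in red, sgDDX6.2 in yellow and sgNS in blue, and members grouped by role. In all 47 rows both sgDDX6.1 dots lie to the right of both sgDDX6.2 dots, while their place relative to the sgNS dots varies from member to member.

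Against sgNS the members were split. Over both guides, 28 were called higher, 9 lower and 10 were not called, against 33.8% higher and 32.9% lower of all genes, with a median log2 fold change of 0.17 beside 0.00 over all genes. With sgDDX6.1, 36 were higher and 5 lower (31.8% and 29.7% of all genes) and the median was 0.36. With sgDDX6.2, 17 were higher and 16 lower (31.5% and 32.7% of all genes) and the median was 0.01. These comparisons share the sgNS libraries. All 4 sgDDX6 libraries lay above both sgNS libraries for 21 members (31.5% of all genes) and below for 6 (31.9%). Libraries with sgDDX6.1 lay wholly above sgNS for 36 members (40.3% of all genes) and wholly below for 6 (38.7%). Libraries with sgDDX6.2 lay wholly above for 21 members (40.3%) and wholly below for 19 (42.8%). Cytosolic ribosomal proteins took 18.2% to 19.2% of the TPM in sgDDX6 libraries against 23.7% or more in sgNS libraries. Rescaled without those genes, the split over both guides was 23 higher and 14 lower. Over all genes that split was then 2865 higher and 4873 lower, against 3764 and 3670 as deposited. With sgDDX6.2 the rescaled split of the members was 7 higher and 20 lower. The median of all genes with sgDDX6.2 was then -0.102, against -0.01 as deposited. The 7 and 20 thus include a shift of all genes, whose share of calls is not given here. Without sgDDX6.2 replicate 2, 10 members were called higher with sgDDX6.2. At least 1 single-library omission ended the call of 7 members over both guides, 5 with sgDDX6.1 and 11 with sgDDX6.2.

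**Figure D2:**
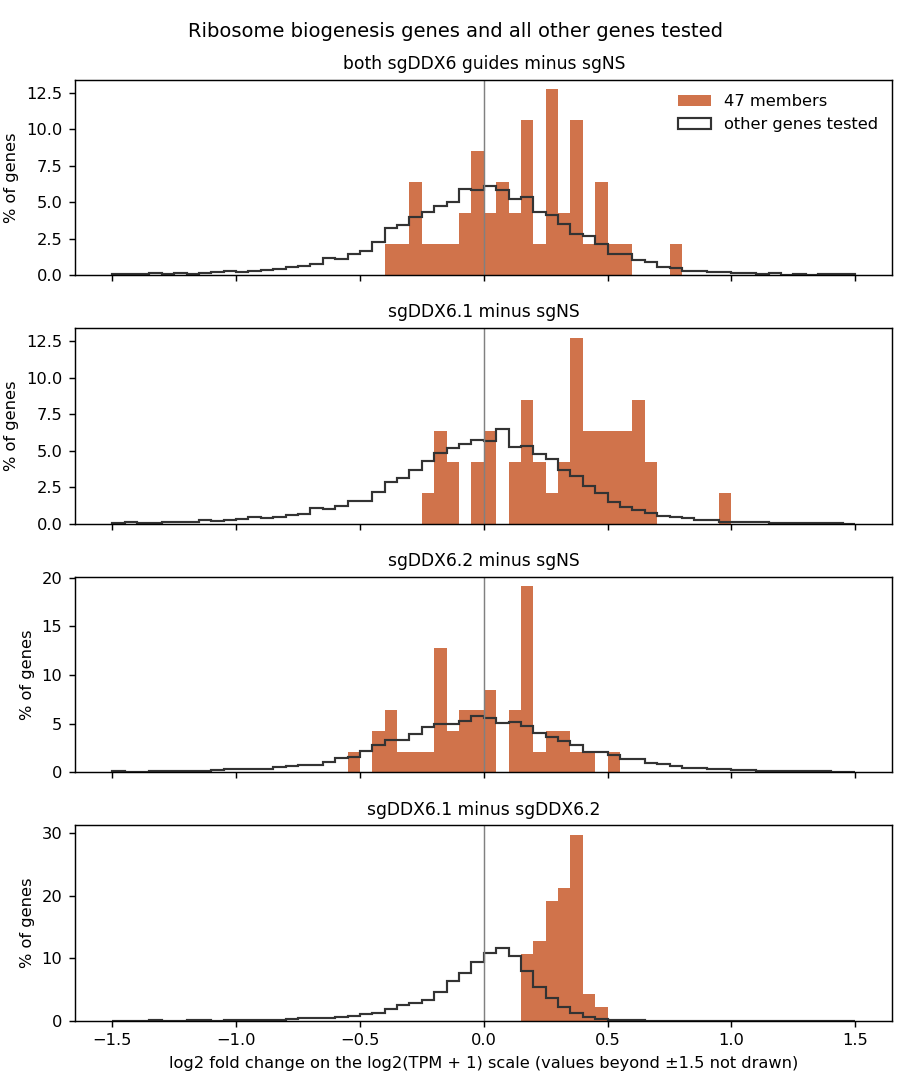
Each panel shows the percentage of genes at each log2 fold change, log2(TPM + 1) scale, for the 47 members (filled) and the other genes tested (line). Members spread over both sides of 0 in the panels against sgNS and occupy 0.16 to 0.45 in the panel of sgDDX6.1 minus sgDDX6.2.

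By group means of TPM, 24 members followed the order sgDDX6.1, sgDDX6.2, sgNS from high to low, as did 20.4% of all genes tested. In 15 members sgNS lay between a higher sgDDX6.1 and a lower sgDDX6.2 (9.9% of all genes), and in 8 sgNS was highest and sgDDX6.2 lowest (24.9%). The summed TPM of the 47 genes was 8294 and 8182 with sgDDX6.1, 6850 and 6919 with sgDDX6.2, and 7081 and 7026 with sgNS. Its means were 8238 ± 79.1, 6885 ± 49.1 and 7054 ± 38.6 (SD, n = 2 each). The sgDDX6.1 sums were the highest and the sgDDX6.2 sums the lowest, with no overlap between groups. NPM1 and NCL make up much of this sum.

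**Figure D3:**
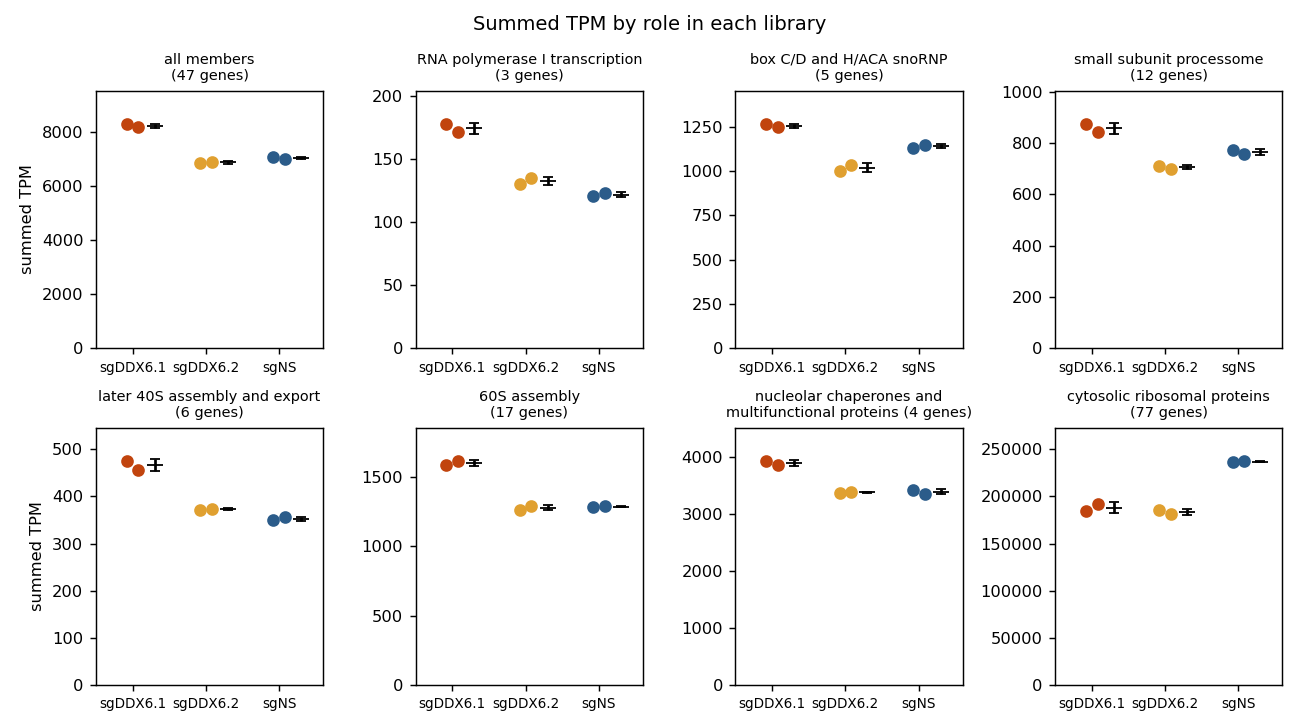
Summed TPM per library by role, with dots for libraries and a bar for the group mean and SD (n = 2 each), and each axis starting at 0. The sgDDX6.1 libraries are highest in every panel of members, while the panel of cytosolic ribosomal proteins has its highest values in sgNS.

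The 3 members that act in RNA polymerase I transcription were called higher over the mean of both guides, though POLR1B rose only with sgDDX6.1. Of 11 other genes of that machinery, 2 were called higher and 4 lower over both guides, with a median of -0.07. These are 18.2% and 36.4%, against 33.8% and 32.9% of all genes. With sgDDX6.1 4 of the 11 were higher and 2 lower (36.4% and 18.2%, against 31.8% and 29.7% of all genes). With sgDDX6.2 0 were higher by limma (0 also at an unadjusted p under 0.05) and 6 lower (54.5%). Of all genes 31.5% were higher and 32.7% lower there. Between the guides 6 were higher with sgDDX6.1 (54.5%, against 18.6% of all genes). POLR1A, the largest catalytic subunit, had 61.2 and 58.8 TPM with sgDDX6.1 and 46.2 and 47.8 TPM with sgDDX6.2, against 38.8 and 39.2 TPM with sgNS. No library of a group reached into another, and POLR1A rose over both guides by 0.44 (SE 0.04; adjusted p = 3.87e-06). TCOF1, the nucleolar protein treacle, had 61.1 and 60.4 TPM with sgDDX6.1 and 46.0 and 46.9 TPM with sgDDX6.2, against 39.4 and 41.7 TPM with sgNS. Its change was 0.38 (SE 0.04; adjusted p = 1.27e-05); the call with sgDDX6.2 alone (adjusted p = 0.00599) was lost without sgDDX6.2 replicate 2 or sgNS replicate 1 (adjusted p 0.0546 and 0.0592). POLR1B, the other large catalytic subunit, had 55.3 and 52.2 TPM with sgDDX6.1 and 38.4 and 40.1 TPM with sgDDX6.2, against 42.2 and 42.3 TPM with sgNS. POLR1B rose with sgDDX6.1 (0.34, adjusted p = 0.000172). Both sgDDX6.2 libraries lay below both sgNS libraries, but that difference was not called (-0.10, adjusted p = 0.11). The change over both guides was 0.12 (adjusted p = 0.0377). Of the 6 single-library omissions 5 ended that call, with changes of 0.10 to 0.13. Rescaling without cytosolic ribosomal proteins ended it too (adjusted p = 0.581). Between the guides POLR1B differed by 0.44 (SE 0.05, adjusted p = 0.00012).

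The snoRNP proteins split over both guides, with 2 higher, 2 lower and 1 uncalled, and a median of -0.03. The shares of 40% higher and 40% lower stand beside 33.8% and 32.9% of all genes. NOP58, a core protein of box C/D snoRNPs, which guide ribose methylation, had 185 and 178 TPM with sgDDX6.1 and 151 and 151 TPM with sgDDX6.2, against 207 and 204 TPM with sgNS. It fell with both guides, by 0.31 over both (SE 0.03; adjusted p = 8.42e-06). Its partner NOP56 had 341 and 337 TPM with sgDDX6.1 and 270.3 and 278 TPM with sgDDX6.2, against 264 and 276 TPM with sgNS. It rose with sgDDX6.1 by 0.33 (SE 0.04; adjusted p = 1.78e-05), while sgDDX6.2 and sgNS overlapped. FBL, the methyltransferase of the same particles, had 276 and 293 TPM with sgDDX6.1 and 226 and 248 TPM with sgDDX6.2, against 279 and 291 TPM with sgNS. It fell with sgDDX6.2 (-0.27, SE 0.05, adjusted p = 0.000599), and its call over both guides (-0.14) was lost without sgDDX6.1 replicate 1, sgDDX6.2 replicate 1 or sgNS replicate 2 (adjusted p up to 0.103). DKC1, the pseudouridine synthase of H/ACA snoRNPs, had 235 and 224 TPM with sgDDX6.1 and 182 and 185 TPM with sgDDX6.2, against 211 and 207 TPM with sgNS. It was above sgNS with sgDDX6.1 (0.13, adjusted p = 0.0129) and below with sgDDX6.2 (-0.18, adjusted p = 0.00186); the call with sgDDX6.1 was lost without sgDDX6.1 replicate 1 or sgNS replicate 2 (adjusted p 0.0684 and 0.068) and after rescaling without cytosolic ribosomal proteins (adjusted p = 0.324). Although the 5 members differed in their place relative to sgNS, their differences between the guides ran from 0.26 (NOP58) to 0.35 (NOLC1, a snoRNP chaperone).

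In the small subunit processome 6 of 12 members were higher over both guides, 2 lower and 4 uncalled. That is 50% higher and 16.7% lower, against 33.8% and 32.9% of all genes. UTP20, a very large scaffold protein, had the largest change of all members: 18.8 and 17.0 TPM with sgDDX6.1 and 13.0 and 13.0 TPM with sgDDX6.2, against 8.60 and 8.52 TPM with sgNS. The groups did not overlap, and the log2 fold change was 0.98 with sgDDX6.1 (SE 0.07; adjusted p = 4.17e-07) and 0.55 with sgDDX6.2 (SE 0.07; adjusted p = 3.98e-05). RRP9, a U3 snoRNP protein, had 44.3 and 49.6 TPM with sgDDX6.1 and 35.9 and 36.7 TPM with sgDDX6.2, against 28.0 and 30.9 TPM with sgNS. It rose over both guides by 0.47 (SE 0.06; adjusted p = 2.26e-05). The lowest member by mean TPM, UTP15 of the UTP-A complex, had 12.5 and 12.1 TPM with sgDDX6.1 and 9.34 and 9.13 TPM with sgDDX6.2, against 8.41 and 7.97 TPM with sgNS, and it rose over both guides by 0.34 (SE 0.06; adjusted p = 0.000456). NOL11, of the same complex but outside the list of members, rose over both guides too, by 0.30 (SE 0.04, adjusted p = 1.93e-05). UTP4 and HEATR1, also of that complex and outside the list, moved less over both guides. Their log2 fold changes were 0.004 (adjusted p = 0.934) and 0.11 (adjusted p = 0.0421), in that order. WDR43, a further protein of that complex, had 131 and 122 TPM with sgDDX6.1 and 97.2 and 97.7 TPM with sgDDX6.2, against 115 and 113 TPM with sgNS. WDR43 was called above sgNS with sgDDX6.1 (0.15) and below with sgDDX6.2 (-0.22); the call with sgDDX6.1 was lost without sgDDX6.1 replicate 1 or sgNS replicate 2 (adjusted p 0.0852 and 0.0682) and after the same rescaling (adjusted p = 0.234). UTP3, a processome factor, had 59.1 and 56.5 TPM with sgDDX6.1 and 49.6 and 49.6 TPM with sgDDX6.2, against 66.6 and 65.0 TPM with sgNS, and fell by 0.29 over both guides (SE 0.04; adjusted p = 7.27e-05). NOP14 fell as well, by 0.23 (SE 0.03; adjusted p = 0.000113); its fall with sgDDX6.1 alone (adjusted p = 0.0363) was lost when any single library was left out (adjusted p up to 0.158). WDR75, another processome member, was not called over both guides (0.06, adjusted p = 0.262). It was higher with sgDDX6.1 (0.20, adjusted p = 0.00551) and not called with sgDDX6.2 (-0.08, adjusted p = 0.187). The 12 differences between the guides ran from 0.16 (UTP6) to 0.43 (UTP20).

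Of the 6 genes of later 40S assembly and export, 4 were higher over both guides, 1 lower and 1 uncalled. That is 66.7% higher and 16.7% lower, against 33.8% and 32.9% of all genes. LTV1, an assembly factor that leaves the pre-40S particle late, had 195 and 182 TPM with sgDDX6.1 and 152.7 and 156 TPM with sgDDX6.2, against 123 and 123 TPM with sgNS. It rose by 0.47 over both guides (SE 0.04; adjusted p = 7.54e-07). NOB1, the endonuclease that makes the mature 3′ end of the small subunit RNA, had 68.0 and 67.4 TPM with sgDDX6.1 and 53.0 and 53.1 TPM with sgDDX6.2, against 66.6 and 67.9 TPM with sgNS. The sgDDX6.1 and sgNS libraries overlapped and both sgDDX6.2 libraries were low, with a fall of 0.34 with sgDDX6.2 (SE 0.05; adjusted p = 5.32e-05). PNO1, its partner, rose by 0.34 over both guides (adjusted p = 4.79e-05). RRP12, TSR1 and BYSL, which act on the pre-40S particle, had log2 fold changes over both guides of 0.16, 0.17 and 0.09, in that order. The call of RRP12 was lost without sgNS replicate 1 (adjusted p = 0.0935) and that of TSR1 without sgNS replicate 2 (adjusted p = 0.0599). Rescaling without cytosolic ribosomal proteins ended both (adjusted p 0.18 and 0.101). Between the guides RRP12 differed by 0.38, TSR1 by 0.36 and BYSL by 0.31.

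The 17 genes of 60S assembly held 11 higher over both guides, 3 lower and 3 uncalled, with a median of 0.28. That is 64.7% higher and 17.6% lower, against 33.8% and 32.9% of all genes. The excess of rises was not seen in 40 other 60S assembly factors outside the list of members. Of those, 12 were higher and 11 lower over both guides (30% and 27.5%), with a median of 0.06. NOP16 had 98.9 and 114 TPM with sgDDX6.1 and 86.8 and 89.3 TPM with sgDDX6.2, against 69.4 and 61.8 TPM with sgNS, and rose by 0.55 (SE 0.06; adjusted p = 7.27e-06). NOP2, a methyltransferase of the large subunit RNA, had 81.7 and 79.6 TPM with sgDDX6.1 and 68.0 and 68.1 TPM with sgDDX6.2, against 52.3 and 51.6 TPM with sgNS, and rose by 0.50 (SE 0.04; adjusted p = 4.97e-07). NIP7 had 63.5 and 62.7 TPM with sgDDX6.1 and 46.5 and 45.1 TPM with sgDDX6.2, against 42.7 and 39.0 TPM with sgNS; it had the largest difference between the guides of all members, 1.37-fold (log2 0.45, SE 0.06, adjusted p = 0.000143). For NIP7 the rise with sgDDX6.2 was called (adjusted p = 0.0223) but was lost without either sgDDX6.2 library or sgNS replicate 2 (adjusted p 0.0568 to 0.21) and after that rescaling (adjusted p = 0.283). The PeBoW complex was split: WDR12 had 99.3 and 101 TPM with sgDDX6.1 and 78.2 and 81.6 TPM with sgDDX6.2, against 120 and 112 TPM with sgNS, the lowest fold change of all members over both guides (-0.37, SE 0.04, adjusted p = 1.01e-05). Its partner BOP1 had 91.6 and 98.0 TPM with sgDDX6.1 and 70.5 and 76.1 TPM with sgDDX6.2, against 69.6 and 78.8 TPM with sgNS, and rose with sgDDX6.1 (0.35, adjusted p = 0.000554), while sgDDX6.2 and sgNS overlapped. The third partner, PES1, rose with sgDDX6.1 (0.20, adjusted p = 0.00615, but adjusted p = 0.07 when rescaled). GNL2, a GTPase of pre-60S particles, fell over both guides by 0.28 (adjusted p = 7.9e-05), and WDR74 fell by 0.27 (adjusted p = 0.000697). BRIX1, an assembly factor of the large subunit, had 165 and 160 TPM with sgDDX6.1 and 126 and 123 TPM with sgDDX6.2, against 145 and 138 TPM with sgNS, so sgNS lay between the guides; its call below sgNS with sgDDX6.2 (-0.18, adjusted p = 0.00331) was lost with the GC trend removed (adjusted p = 0.0651). PPAN has a readthrough gene with its neighbour listed in a separate row, and reads shared with it make its value less certain.

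Among the 4 chaperones and multifunctional proteins NCL and GNL3 were called higher over both guides and NPM1 lower. That is 50% and 25%, against 33.8% and 32.9% of all genes. GNL3 (nucleostemin), a nucleolar GTPase, had 216 and 207 TPM with sgDDX6.1 and 174 and 172 TPM with sgDDX6.2, against 140.4 and 139 TPM with sgNS, a rise of 0.45 (SE 0.03; adjusted p = 4.31e-07) with no overlap. NCL (nucleolin), 1 of the 2 most abundant members, had 1829 and 1764 TPM with sgDDX6.1 and 1511 and 1536 TPM with sgDDX6.2, against 1371 and 1336 TPM with sgNS, a rise of 0.29 (SE 0.03; adjusted p = 3.54e-06). NPM1 (nucleophosmin) had 1789 and 1787 TPM with sgDDX6.1 and 1608 and 1600 TPM with sgDDX6.2, against 1825 and 1788 TPM with sgNS. It fell with sgDDX6.2 by 0.17 (adjusted p = 0.000416, but adjusted p = 0.059 under quantile normalization and adjusted p = 0.213 with the GC trend removed). With sgDDX6.1 its change was -0.01 (adjusted p = 0.692), but 0.14 and called under quantile normalization (adjusted p = 0.00124). Over both guides NPM1 was lower by 0.09, a value that turned to 0.04 under quantile normalization and 0.01 with the GC trend removed and was lost without sgNS replicate 1 (adjusted p = 0.106). GENCODE lists 45 pseudogenes by name for NPM1, so reads that fit several copies make it uncertain.

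**Figure D4:**
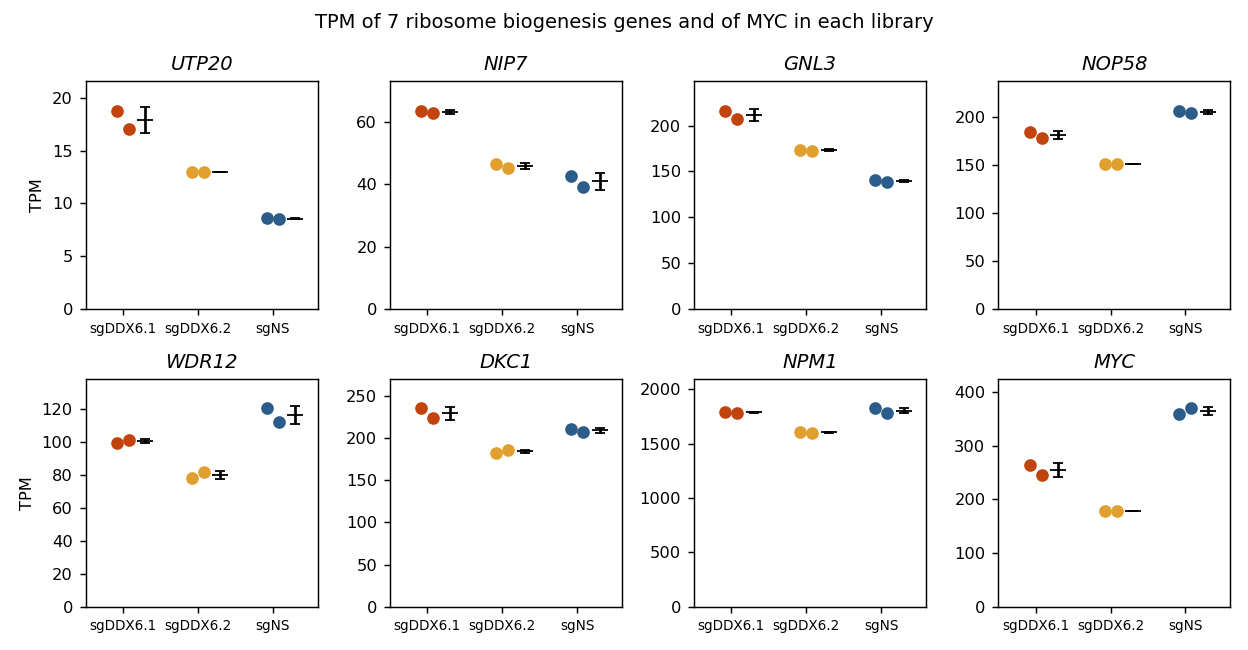
TPM in each library for 7 members and for MYC, with dots for libraries and a bar for the group mean and SD (n = 2 each), and each axis starting at 0. UTP20, NIP7 and GNL3 fall in the order sgDDX6.1, sgDDX6.2, sgNS, NOP58, WDR12 and MYC have sgNS highest, and DKC1 has sgNS between the guides.

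Other genes of the pathway, listed by role but with earlier results of these data known, numbered 98 in the table of 101 looked for. Over both guides 38 were higher and 24 lower (38.8% and 24.5%, against 33.8% and 32.9% of all genes). With sgDDX6.1 the counts were 53 and 13 (54.1% and 13.3%, against 31.8% and 29.7% of all genes). With sgDDX6.2 they were 27 and 39 (27.6% and 39.8%, against 31.5% and 32.7% of all genes). Between the guides 62 were higher and 0 lower with sgDDX6.1 (63.3% and 0%, against 18.6% and 17.0% of all genes). The difference was positive in 92 of the 98, as in 6169 of all 11151 genes, and the median was 0.21. RSL24D1, a 60S factor, had 273 and 254 TPM with sgDDX6.1 and 227 and 230 TPM with sgDDX6.2, against 683 and 614 TPM with sgNS, a fall of 1.40 (SE 0.04; adjusted p = 2.37e-10). NOL6, of the 40S pathway, rose by 0.65 over both guides (adjusted p = 2.09e-07), and ZNRD1, an RNA polymerase I subunit, fell by 0.72 (adjusted p = 1.36e-07). Of the 77 cytosolic ribosomal proteins 73 (94.8%) were lower over both guides, with a median of -0.36. The 1 called higher (1.3%) was RPS26 (0.92, named after its value was seen). Between the guides 15 were higher and 2 lower (19.5% and 2.6%, against 18.6% and 17.0% of all genes), with a median of 0.06. Mitochondrial ribosomal proteins numbered 74, of which 39 were higher and 11 lower over both guides (52.7% and 14.9%, against 33.8% and 32.9% of all genes). Of these 74, 26 were higher and 0 lower with sgDDX6.1 than with sgDDX6.2 (35.1% and 0%, against 18.6% and 17.0% of all genes). That difference was positive in 63 of them, with a median of 0.12, so its 1-sided direction was not particular to ribosome biogenesis genes. MYC had 264 and 245 TPM with sgDDX6.1 and 178 and 178 TPM with sgDDX6.2, against 360 and 370 TPM with sgNS. It fell by 0.77 over both guides (SE 0.04; adjusted p = 7.4e-09), and its difference between the guides was 0.51 (adjusted p = 1.15e-05). Whether MYC has a part in the members' differences was not tested.

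**Figure D5:**
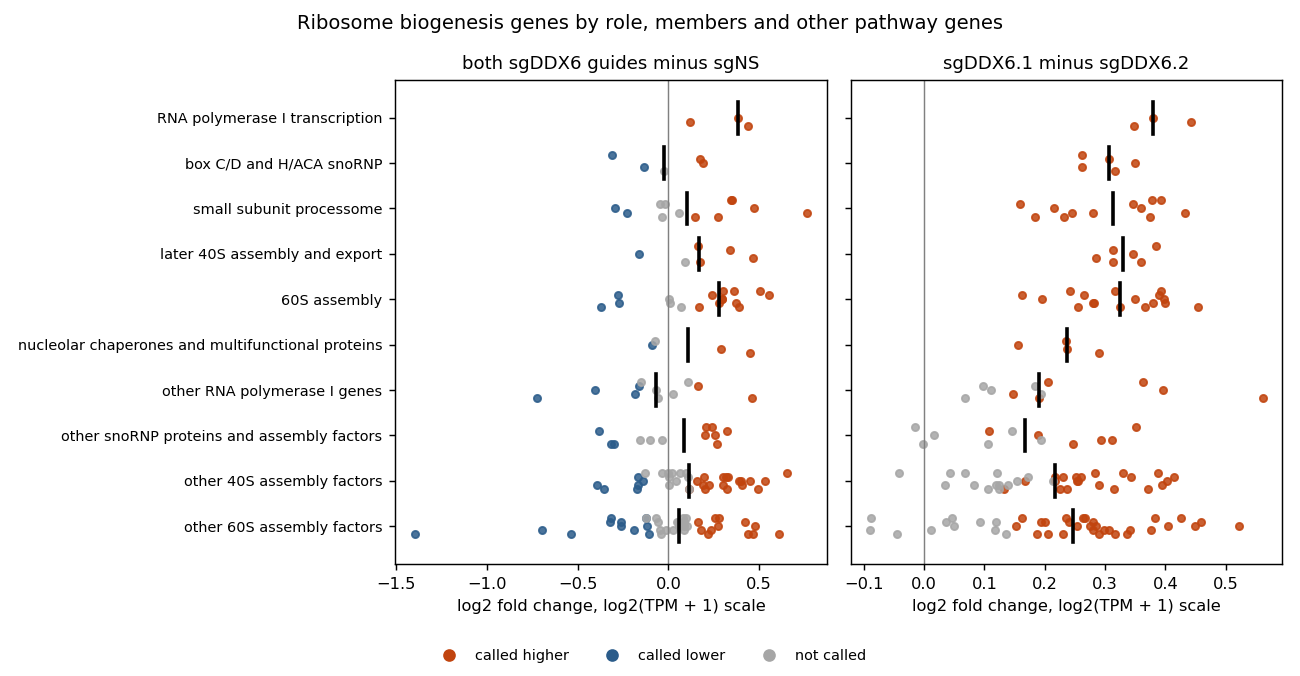
Log2 fold change of each gene, log2(TPM + 1) scale, by role, for both guides minus sgNS and for sgDDX6.1 minus sgDDX6.2; a black bar marks each median and color marks the call. In the right panel all members are called higher, and of the other pathway genes 62 of 98 are, against 18.6% of all genes.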

How the data were processed

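The authors deposited a table of TPM values for 6 libraries. RSEM 1.2.31 and the GRCh38 build are named in the submitters' processing notes; aligner and annotation: not given in the sources used here. As TPM is a share of each library, a fall of abundant genes raises the values of others. Libraries were grouped by their labels. Values were transformed as log2(TPM + 1), keeping genes at 1 TPM or more in 2 or more libraries. Group means (3) were modelled over the 6 libraries in limma 3.58.1 (R 4.3.3) with a variance trend, 3 residual degrees of freedom, two-sided tests and a Benjamini-Hochberg threshold of 0.05, checked on simulated data. Tested were the mean of both guides against sgNS, each guide against sgNS, and sgDDX6.1 against sgDDX6.2.

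Members and lists were chosen with earlier results of these data known. Named genes were, in each role, the members with the largest changes and those called against their role's median. Added were the highest and lowest members by mean TPM, and the genes with the lowest adjusted p of the other lists. Other members, RPS26, NOL11, UTP4 and HEATR1 were named after their values were seen. Gene positions came from GENCODE release 29 (GRCh38), which may not be the authors' annotation, and promoters from RefSeq (GRCh38.p14). UBTF, WDR46 and EMG1 were not analysed here. The alternatives changed the pseudocount, filter, scaling, variance model and libraries; removal of GC and length trends was added after seeing the data.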

Additional observations from a re-analysis of the deposited data

Results flagged for a closer look

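Several genes were called on opposite sides of sgNS by the guides, and the difference between the guides was itself tested with limma and Benjamini-Hochberg adjustment. The share of all genes with such opposite calls was not counted. These genes are therefore described singly, and their number is not read as a trait of the members. Among the members, DKC1 was 0.32 higher with sgDDX6.1 than with sgDDX6.2 on the log2 scale, UTP14A 0.35, WDR43 0.37, BRIX1 0.38 and NOC3L 0.40. Of the other pathway genes, TAF1D, a factor of RNA polymerase I transcription, differed by 0.40 and MDN1, a large ATPase of 60S maturation, by 0.52. All 7 were above sgNS with sgDDX6.1 and below it with sgDDX6.2. The calls above sgNS with sgDDX6.1 were lost for DKC1, UTP14A, WDR43 and NOC3L after rescaling without cytosolic ribosomal proteins (adjusted p 0.324, 0.257, 0.234 and 0.116), and the calls below sgNS with sgDDX6.2 were lost for BRIX1 and NOC3L with the GC trend removed (adjusted p 0.0651 and 0.993). Leaving out sgDDX6.1 replicate 1 or sgNS replicate 2 also ended the calls above sgNS with sgDDX6.1 of DKC1 (adjusted p 0.0684 and 0.068), WDR43 (0.0852 and 0.0682), UTP14A (0.129 and 0.139) and NOC3L (0.0992 and 0.109). The call of UTP14A below sgNS with sgDDX6.2 was lost without sgDDX6.2 replicate 1 or sgNS replicate 1 (adjusted p 0.0846 and 0.0632), and that of NOC3L without sgDDX6.2 replicate 2 or sgNS replicate 1 (0.0924 and 0.117). For TAF1D the call above sgNS was lost after rescaling (adjusted p = 0.447) and in 5 of the 6 single-library omissions (0.0523 to 0.289), and for MDN1 the call below sgNS was lost with the length trend removed (0.336). The difference between the guides was called under each of these alternatives for all 7 genes.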

How the results depend on the processing

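Under every alternative tried, no member was called lower with sgDDX6.1 than with sgDDX6.2, and 42 to 47 of the 47 were called higher; 45 were called with no filter and without the variance trend. The other counts of members stayed within 1.5 times, with exceptions. Rescaled without cytosolic ribosomal protein genes, 14 members were lower over both guides and 7 higher with sgDDX6.2, and the summed TPM became 10149 with sgDDX6.1, 8434 with sgDDX6.2 and 9246 with sgNS. The medians of the members over both guides, with sgDDX6.1, with sgDDX6.2 and between the guides were then 0.083, 0.269, -0.082 and 0.324; the median of all genes moved by -0.088, -0.082, -0.092 and 0.008. Quantile normalization gave 0.153, 0.321, -0.013 and 0.301. A pseudocount of 5 gave 0.161, 0.325 and, between the guides, 0.302. Median centring gave 0.03 with sgDDX6.2 and 0.296 between the guides. With the GC trend removed they were 0.025 with sgDDX6.2 and 0.339 between the guides, and with the length trend removed 0.201, 0.391 and, with sgDDX6.2, 0.039. Leaving out 1 library gave medians of 0.167 to 0.188 over both guides, 0.322 to 0.359 with sgDDX6.1, 0.002 to 0.028 with sgDDX6.2 and 0.305 to 0.329 between the guides. It gave 10 to 17 members higher with sgDDX6.2. Over all genes it gave 971 to 2159 higher and 1172 to 1962 lower with sgDDX6.1 than with sgDDX6.2, the fewest higher without sgDDX6.2 replicate 1 and the fewest lower without sgDDX6.2 replicate 2. The cause of these shifts was not tested.

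The replicate block left 28 members higher and 9 lower over both guides, 36 and 6 with sgDDX6.1, 19 and 16 with sgDDX6.2, and 47 and 0 between the guides. Deviations of same-numbered libraries correlated at 0.04, 0.262 and 0.098, so the numbers are not taken as pairs. The fit with only the groups compared equals the fit as reported over both guides and was not repeated there.

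Of 5175 comparisons of a named gene's value with its value as reported, 4868 kept direction and call, 169 lost the call, 67 gained it and 71 turned sign, of which 65 were called in neither fit. Under quantile normalization, the sign turned for the log2 fold change over both guides against sgNS of NPM1 (0.039) and BRIX1 (-0.045), and with sgDDX6.1 against sgNS of NOB1 (-0.021), NPM1 (0.136) and UTP6 (-0.011), and with sgDDX6.2 against sgNS of NOLC1 (-0.038), NOP56 (-0.014), TSR1 (0.027) and UTP18 (-0.013), and with sgDDX6.1 against sgDDX6.2 of DDX6 (-0.025). Rescaled without cytosolic ribosomal protein genes, the sign turned for the log2 fold change over both guides against sgNS of NOC3L (-0.09), MDN1 (-0.033), WDR75 (-0.033), PES1 (-0.022) and BRIX1 (-0.084), and with sgDDX6.1 against sgNS of NOB1 (-0.078), NPM3 (-0.048) and UTP6 (-0.053), and with sgDDX6.2 against sgNS of NOLC1 (-0.082), NOP56 (-0.074), UTP18 (-0.064) and RRP1B (-0.051), and with sgDDX6.1 against sgDDX6.2 of PIH1D1 (0.006). With median centring, the sign turned for the log2 fold change with sgDDX6.2 against sgNS of TSR1 (0.01), and with sgDDX6.1 against sgDDX6.2 of DDX6 (-0.013) and RPS26 (-0.007). With the GC trend removed, the sign turned for the log2 fold change over both guides against sgNS of DKC1 (0.009), NPM1 (0.011), TAF1D (0.014), UTP6 (0.084), UTP14A (0.014) and WDR43 (0.073), and with sgDDX6.1 against sgNS of NPM1 (0.073), and with sgDDX6.2 against sgNS of NOP56 (-0.012), UTP6 (0.025) and WDR75 (0.047), and with sgDDX6.1 against sgDDX6.2 of DDX6 (-0.039) and PIH1D1 (0.074). With the length trend removed, the sign turned for the log2 fold change over both guides against sgNS of DKC1 (0.002) and UTP14A (0.017), and with sgDDX6.1 against sgNS of FBL (0.015) and NPM1 (0.011), and with sgDDX6.2 against sgNS of TSR1 (0.039), RRP12 (0.002) and UTP18 (-0.008), and with sgDDX6.1 against sgDDX6.2 of DDX6 (-0.013) and PIH1D1 (0.035). Leaving out 1 library at a time gave log2 fold changes on both sides of 0 or at 0 over both guides against sgNS for NOC3L from -0.053 to 0.057, UTP14A from -0.048 to 0.015 and BRIX1 from -0.028 to 0.047, with sgDDX6.1 against sgNS for FBL from -0.048 to 0.038, NOB1 from -0.003 to 0.023 and NPM1 from -0.029 to 0, with sgDDX6.2 against sgNS for NOP56 from -0.007 to 0.053, TSR1 from -0.039 to 0.029, RRP12 from -0.059 to 0, UTP18 from -0.007 to 0.072 and BOP1 from -0.103 to 0.072, and with sgDDX6.1 against sgDDX6.2 for DDX6 from -0.025 to 0.04, PIH1D1 from -0.063 to 0.059 and RPS26 from -0.015 to 0.042.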
